A study of Mus musculus with 19 samples.

Results

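The mitochondrial genome encodes 13 proteins, 2 ribosomal RNAs and 22 transfer RNAs, and their transcripts were followed through the first 3 postnatal weeks of the mouse heart together with 5 nuclear genes whose sequences copy parts of that genome. Members were every gene of the deposited table whose name begins with mt-, plus Gm28661, Gm28437, Gm10222, Gm28438 and Gm10925, which were chosen by their high TPM in these libraries and because they may share reads with mitochondrial genes. That gave 42 of 56066 genes: 13 protein genes, 2 rRNA genes, 22 tRNA genes and 5 look-alikes. Because abundance chose the look-alikes, their high level is a description and not a finding. RNA of whole heart tissue was sequenced from wild-type (WT) mice at postnatal day 1 (P1, 3 libraries; the series' design text gives P0), day 7 (P7, 5 libraries) and day 21 (P21, 4 libraries), and from PDK1 conditional knockout (cKO) mice at P7 and P21 (3 libraries each). WT titles come in 2 styles, and 7 WT libraries (3 at P1, 2 at P7, 2 at P21) carry letter-coded titles, while the other 5 WT and all 6 cKO libraries carry plain numbers. What the styles stand for is not given in the sources used here, and libraries are named below by group and title number. The P21 library with the number 63 was left out of every group, since its genotype label says cKO and its title does not. Both letter-coded P21 WT titles hold the letters B6, which may mark a strain, and no other title does. Whether these mice differ in strain from the others is not given. Beyond that mark, the strain, the sex, the Cre driver and the PDK1 gene that was targeted are not given in the sources used here. The labels do not say that libraries came from separate animals, so p-values measure only the spread between libraries, which may be technical.

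In vertebrate mitochondria both strands of the circular genome are transcribed into long polycistronic RNAs. Enzymes cut out the tRNAs that punctuate these precursors, which frees the rRNAs and mRNAs between them, and most of the mRNAs are then tailed with poly(A). The 13 proteins are core subunits of respiratory complexes I (mt-Nd1 to mt-Nd6 and mt-Nd4l), III (mt-Cytb), IV (mt-Co1 to mt-Co3) and V (mt-Atp6 and mt-Atp8), and each complex also holds subunits made from nuclear genes. The heart is rich in mitochondria and turns from glycolysis toward fatty acid oxidation after birth. Pieces of mitochondrial DNA have also been inserted into nuclear chromosomes during evolution, and a recent insertion can still be nearly identical to its source.

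All 5 look-alikes lie on the minus strand of chromosome 1 within a single run of 3159 bases, chr1:24612407-24615565 in mm10, and GENCODE M21 lists each as an unprocessed pseudogene. They stand there in the order of the mitochondrial genes they copy. Gm28661 (ENSMUSG00000102070, chr1:24614885-24615565) matched the first 681 of the 684 bases of mt-Co2 without a mismatch. Gm10925 (ENSMUSG00000100862, chr1:24613974-24614651) matched 678 of the 681 bases of mt-Atp6, and Gm28437 (ENSMUSG00000101111, chr1:24613189-24613971) matched 783 of the 784 bases of mt-Co3, again with 0 mismatches. Gm10222 (ENSMUSG00000067736, chr1:24612407-24612700) matched 294 of the 297 bases of mt-Nd4l with 0 mismatches. Gm28438 (ENSMUSG00000101939, chr1:24612775-24613119) matched 345 of the 348 bases of mt-Nd3 with 1 mismatch, T3C, with positions counted from 1 at the 5′ end of mt-Nd3. A read that does not cross that base or the end of a gene therefore has the same letters in both places. The start of mt-Nd3 and of its copy is shown because it holds the only differing base of the 5 pairs, which is in capitals, and the ends of mt-Nd4l and mt-Co2 because only the final stop codon, TAA in capitals, lies outside the annotated copies. All sequences are mm10, 5′ to 3′ on the gene's own strand.
mt-Nd3, bases 1 to 63: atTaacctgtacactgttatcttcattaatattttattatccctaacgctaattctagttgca
Gm28438, bases 1 to 63: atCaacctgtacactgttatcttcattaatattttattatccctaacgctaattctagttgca
mt-Nd4l, bases 198 to 297: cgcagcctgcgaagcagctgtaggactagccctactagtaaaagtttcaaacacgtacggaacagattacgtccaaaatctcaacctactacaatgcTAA
Gm10222, bases 198 to 294: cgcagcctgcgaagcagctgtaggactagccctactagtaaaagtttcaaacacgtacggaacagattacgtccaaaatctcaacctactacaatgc
mt-Co2, bases 585 to 684: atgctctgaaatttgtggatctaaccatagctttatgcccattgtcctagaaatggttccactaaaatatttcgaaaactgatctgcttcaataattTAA
Gm28661, bases 585 to 681: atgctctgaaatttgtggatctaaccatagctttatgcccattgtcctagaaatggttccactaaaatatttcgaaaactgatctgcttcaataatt

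Overlaps inside the mitochondrial genome share letters too. On chrM, mt-Atp8 (7766 to 7969) and mt-Atp6 (7927 to 8607) overlap by 43 bases, mt-Nd4l (9877 to 10173) and mt-Nd4 (10167 to 11544) by 7, and mt-Nd5 (11742 to 13565) and mt-Nd6 (13552 to 14070) by 14 on opposite strands. The mt-Atp8 and mt-Atp6 overlap also lies at the start of Gm10925, so these 43 bases, in capitals, occur in 3 rows of the table. They are shown because mt-Atp8 was the most abundant row and mt-Atp6 among the most variable.
mt-Atp8, bases 122 to 204: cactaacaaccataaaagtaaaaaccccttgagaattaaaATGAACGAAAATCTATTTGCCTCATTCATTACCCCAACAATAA
mt-Atp6, bases 1 to 83: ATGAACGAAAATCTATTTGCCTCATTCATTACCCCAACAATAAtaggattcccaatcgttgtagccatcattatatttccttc
Gm10925, bases 1 to 83: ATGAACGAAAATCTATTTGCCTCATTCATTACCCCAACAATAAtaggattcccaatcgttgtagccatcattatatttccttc

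The files hold TPM, a length-corrected share of each library's transcripts, which keeps no read depth, so the depth of each library is unknown. Between 12422 and 13797 genes reached 1 TPM per library, and the 14812 genes that reached it in 3 or more libraries entered limma on log2(TPM + 1), a scale that understates the changes of low genes. Pdpk1, the PDK1 kinase gene of the insulin pathway, was at 6.86 ± 0.629 TPM (SD, n = 4) in P21 WT and 5.35 ± 0.344 TPM (SD, n = 3) in P21 cKO libraries, without overlap. At P7 it was at 9.78 ± 1.89 TPM (SD, n = 5) in WT and 8.01 ± 0.0737 TPM (SD, n = 3) in cKO libraries, which overlapped. Pdk1, the pyruvate dehydrogenase kinase that shares the abbreviation, was at 26.5 ± 2.12 TPM (SD, n = 4) and 34.1 ± 3.18 TPM (SD, n = 3) at P21, and at 40.6 ± 3.16 TPM (SD, n = 5) and 38.7 ± 1.70 TPM (SD, n = 3) at P7. All 8 cardiomyocyte markers were above 1 TPM in every group, and 0 of 4 lung and 0 of 5 thymus markers reached it in any. Of 4 brown fat markers 1 or 2 did by group, with summed TPM of 14.4 to 49.0 per library, highest at P7. Of 7 skeletal muscle markers 2 or 3 did, with sums of 3.23 to 15.3 TPM. The part of such tissue in the results was not tested. P1 WT library 3 stood apart in several members: mt-Atp8 was at 48842 TPM there against 74122 and 81888 in the other P1 libraries, and Gm10222 at 9538 against 21717 and 23232.

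Nearly all of the signal of the copied genes was listed under their nuclear copies. In each of the 18 libraries the look-alikes held 94.4% to 96.9% (median 96.4%) of the TPM of the 5 pairs, and 42.7% to 49.1% (median 45.8%) of the TPM of all members. The mitochondrial row of a pair held a small and unsteady part. For mt-Co2, a catalytic core subunit of complex IV, it held 0.0137% to 1.94% of the pair (median 1.26%), and for mt-Atp6, the proton channel subunit of complex V, 0.124% to 20.4% (median 1.77%). The share was 4.12% to 7.58% for mt-Co3, 5.36% to 18.1% for mt-Nd3 and 0.166% to 4.87% for mt-Nd4l. The sum of both rows is therefore given beside each such row.

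The mt-Co2 row was listed at 228, 689 and 10.9 TPM in P1 WT, at 805, 771, 800.0, 692 and 892 in P7 WT and at 723, 6.79 and 19.8 in P7 cKO libraries. It was at 655, 817, 18.2 and 1183 TPM in P21 WT and at 1217, 562 and 484 in P21 cKO libraries. The 4 values under 20 TPM came from P1 WT 3, P7 cKO 75, P7 cKO 82 and P21 WT 57, so low values were found in 3 of the 5 groups and in both title styles. Across the 18 libraries the row spanned 179-fold, whereas mt-Co2 and Gm28661 added together spanned 1.52-fold, as did Gm28661 alone. The mean coefficient of variation within groups was 82.3% for the row, 4.05% for the sum and 4.3% for Gm28661 alone.

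The mt-Atp6 row moved with the title style. It was at 1221 and 1510 TPM in the letter-coded and 292, 362 and 271 in the plain-number P7 WT libraries, and at 4120.1 and 3083 against 350 and 389 TPM at P21. Gm10925 went the other way at P21, with 16056 and 17359 TPM in the letter-coded and 24369.9 and 21381 TPM in the plain-number WT libraries. At P1, where all 3 titles are letter-coded, the row was at 109, 502 and 198 TPM. The row spanned 214-fold and the sum 1.80-fold. For mt-Co3, mt-Nd3 and mt-Nd4l the rows spanned 3.47-fold, 3.80-fold and 22.5-fold, and the sums 2.07-fold, 2.28-fold and 4.03-fold. Within groups the sums varied less than the rows in all 5 pairs, with mean coefficients of variation of 4.05% to 11.7% against 17.9% to 82.3%. The copies alone varied by 4.3% to 12.3%. Since a copy makes up most of its sum, the steadiness of the sums is mostly that of the copies. A copy alone varied less than the sum for mt-Co3 and mt-Nd3, and more for mt-Co2, mt-Atp6 and mt-Nd4l.

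**Figure D1:**
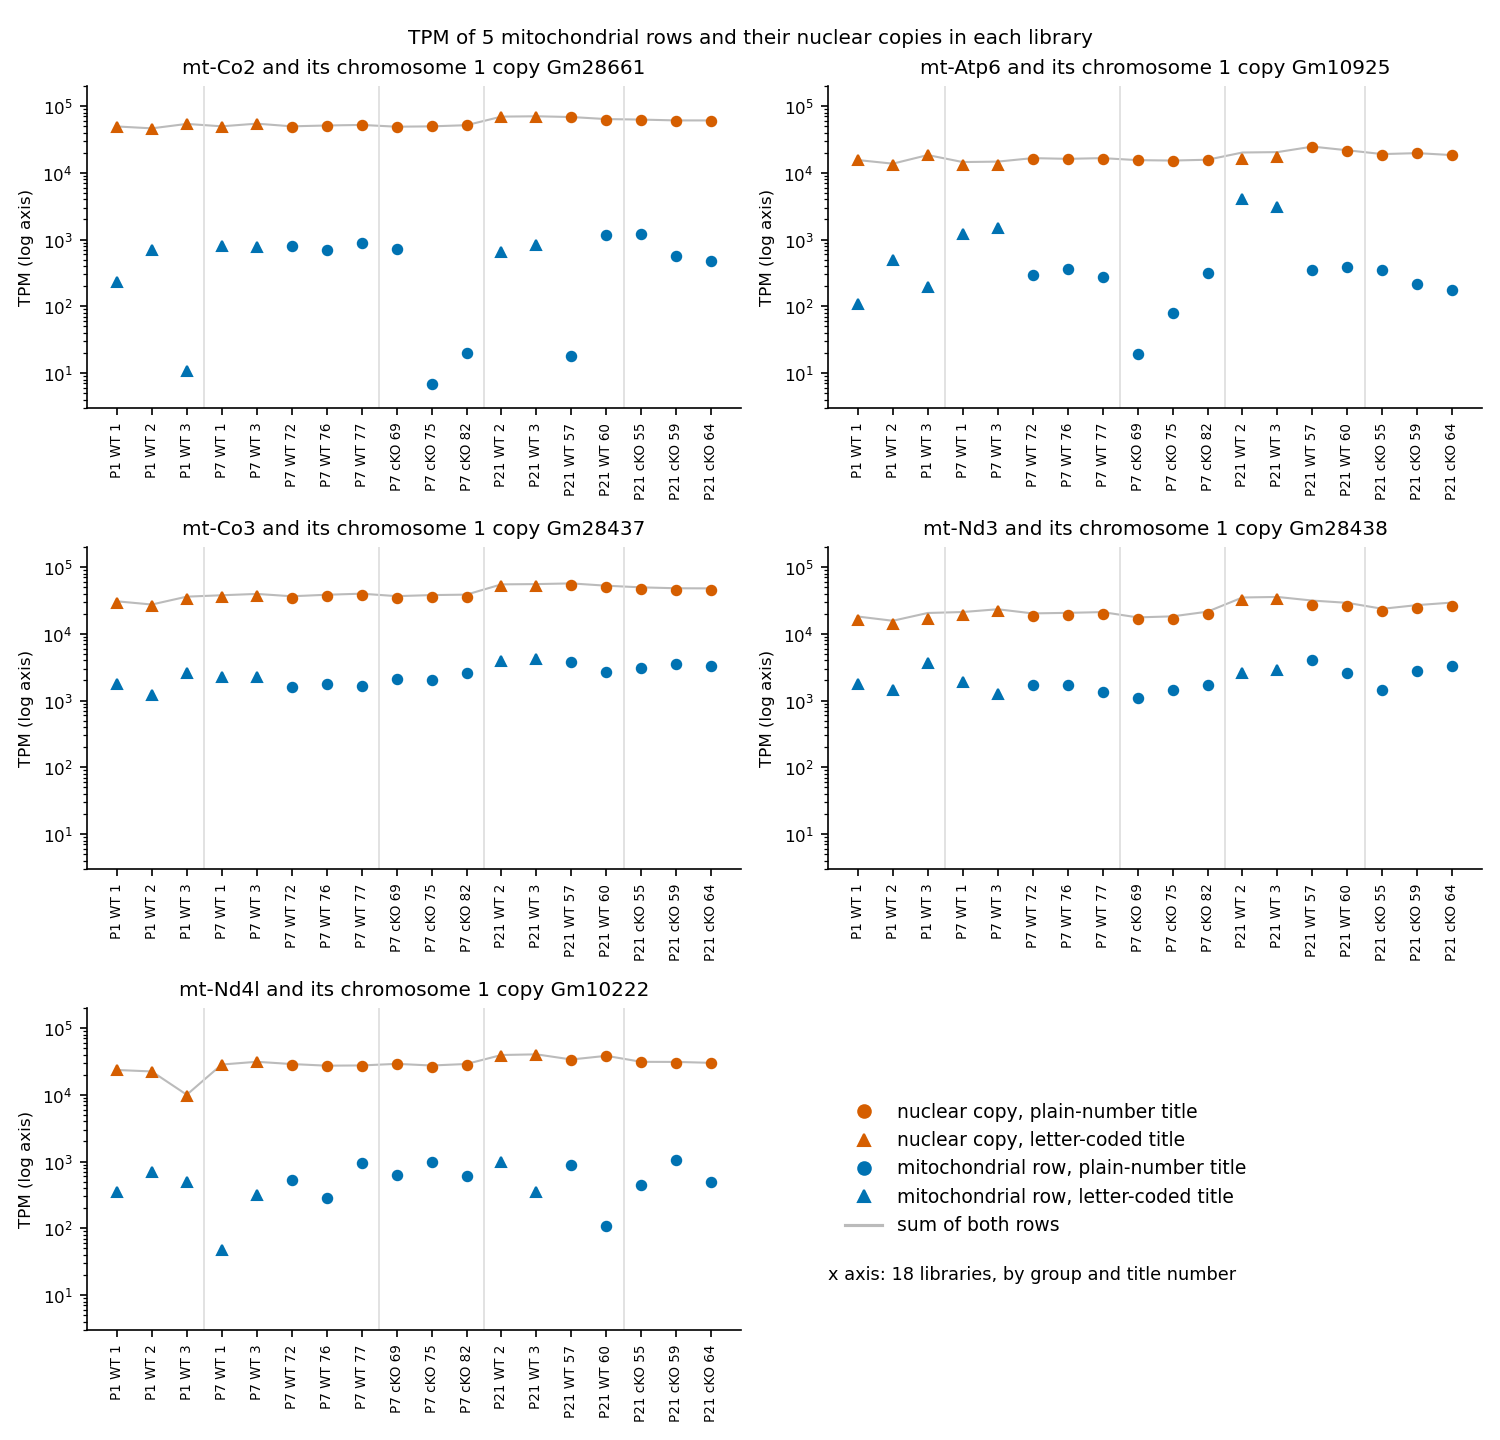
TPM (log axis) of each of the 5 mitochondrial rows (blue) and its chromosome 1 copy (orange) in the 18 libraries, with circles for plain-number and triangles for letter-coded titles and a grey line for the sum. The mt-Co2 row falls below 20 TPM in 4 libraries while its copy stays between 45722 and 69561 TPM.

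How the signal was divided within a pair was also tested between groups, with exact two-sided permutation tests of the log2 ratio of copy to source in 7 pairs (the mt-Rnr1 to mt-Rnr2 and mt-Nd6 to mt-Nd5 ratios included) and 6 comparisons. None of the 42 tests passed after Benjamini-Hochberg adjustment, where the smallest adjusted p was 0.333. The smallest possible p ran from 0.0159 to 0.1 by group size, with 0.1 for 3 against 3 libraries. Even with every test at that floor, no adjusted p would fall under 0.05. None could have passed, so these tests cannot decide whether the division differed between groups. The mean log2 ratio of Gm28661 to mt-Co2 was 10.08 ± 3.55 (SD, n = 3) in P7 cKO and 6.005 ± 0.146 (SD, n = 5) in P7 WT libraries (exact p = 0.107). The ratio of Gm28438 to mt-Nd3 was 3.66 ± 0.336 (SD, n = 5) in P7 WT and 2.90 ± 0.623 (SD, n = 3) in P1 WT libraries, with every P7 library above every P1 library (exact p = 0.0357, the smallest possible; adjusted p = 0.333).

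Of all other nuclear genes in the table, 12 more matched a mitochondrial gene over at least 100 bases at 90% identity or more. Both of the abundant ones lie beside the 5 look-alikes: Gm29216 copies 483 bases of mt-Co1 with a single mismatch, A1066T (counted from the 5′ end of mt-Co1), and Gm28439 copies 876 bases of mt-Nd4 with none. Gm29216 was at 3140.5, 2996 and 10554 TPM in P1 WT and 12124, 12352, 16541 and 14311 TPM in P21 WT libraries. Gm28439 was at 3046, 2689 and 906 and 5139.9, 5195, 3453 and 4243 TPM. In P1 WT 3 the former was the highest and the latter the lowest of the P1 libraries. With them the copied stretch spans 4663 bases, chr1:24611535-24616197. The other 10 had means of 0 to 6.05 TPM and identities up to 97.6%.

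All 22 tRNA genes were listed at 0 in all 19 libraries. They are 59 to 75 bases long, whereas the protein genes span 204 to 1824 bases, and the table lists 1032 genes of at most 75 bases, of which 1029 are at 0 everywhere. A listed 0 for genes of this length therefore says nothing of whether the tRNAs were present. The longest and the shortest are shown to give their size: mt-Tl1, which lies just after mt-Rnr2 and decodes leucine, and mt-Ts2, a serine tRNA.
mt-Tl1: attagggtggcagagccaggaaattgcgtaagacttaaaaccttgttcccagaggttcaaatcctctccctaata
mt-Ts2: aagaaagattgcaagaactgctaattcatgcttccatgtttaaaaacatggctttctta

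The mitochondrial protein genes made up a larger mean share of the heart transcriptome at each later age. The 13 protein genes held 17.6, 16.03 and 13.6% of all TPM in P1 WT, 17.01, 18.4, 19.04, 18 and 18.1% in P7 WT and 23.5, 23.5, 22.5 and 22.2% in P21 WT libraries. Every P21 WT library lay above every P7 WT library. P7 cKO libraries held 17.7, 17.2 and 19.01%, which overlaps P7 WT, and P21 cKO libraries held 19.8, 19.98 and 20.02%, all below the P21 WT libraries. The means were 15.7% ± 2.06 (SD, n = 3), 18.1% ± 0.741 (SD, n = 5), 17.97% ± 0.927 (SD, n = 3), 22.9% ± 0.687 (SD, n = 4) and 19.9% ± 0.135 (SD, n = 3) in the same order of groups (P1 WT, P7 WT, P7 cKO, P21 WT, P21 cKO). Without P1 WT 3, the lowest P1 library, the difference between P7 and P1 WT was 1.27 percentage points in place of 2.37. No test was made of these shares.

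The look-alike class followed the same order, with 12.9% ± 0.671 (SD, n = 3) of all TPM in P1 WT, 15.04% ± 0.474 (SD, n = 5) in P7 WT and 20.6% ± 0.522 (SD, n = 4) in P21 WT libraries. It held 14.6% ± 0.432 (SD, n = 3) in P7 cKO and 17.9% ± 0.0526 (SD, n = 3) in P21 cKO libraries. Far less of the TPM was held by the 2 rRNA genes, in libraries made with an mRNA-Seq kit. They were no higher at P7 than at P1, with 0.226% ± 0.0433 (SD, n = 3) in P1 WT, 0.216% ± 0.0365 (SD, n = 5) in P7 WT and 0.589% ± 0.112 (SD, n = 4) in P21 WT libraries, against 0.218% ± 0.0413 (SD, n = 3) and 0.409% ± 0.0643 (SD, n = 3) in the P7 and P21 cKO libraries. Taken as 1 set, all members made up 28.9% ± 2.19 (SD, n = 3) of the TPM in P1 WT and 44.1% ± 1.25 (SD, n = 4) in P21 WT hearts. Since TPM adds up to the same total in each library, a larger share here lowers the TPM of the remaining genes. In tissue RNA, fewer cells of a type and less RNA per cell cannot be told apart.

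**Figure D2:**
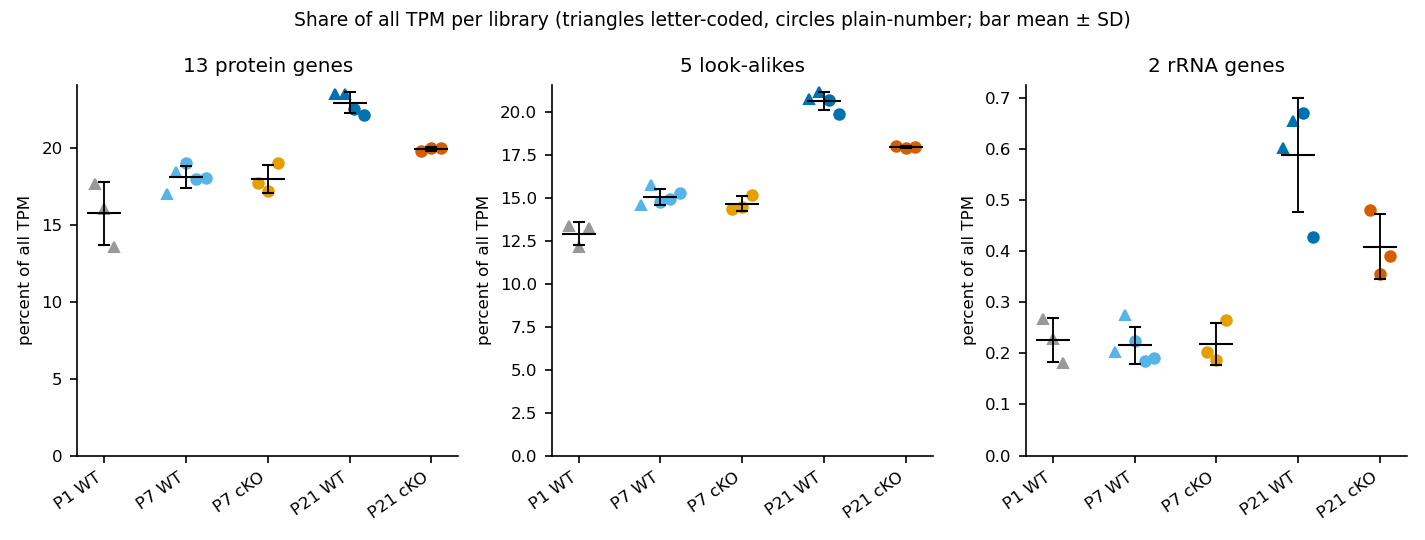
Percent of all TPM in the 13 protein genes, the 5 look-alikes and the 2 rRNA genes, 1 point a library (triangles letter-coded, circles plain-number titles), with bars for mean ± SD. The protein genes lie at 22.2% to 23.5% in P21 WT and at 19.8% to 20.02% in P21 cKO libraries.

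Among themselves the members differed widely in level per length. In P7 WT libraries, with the 5 look-alikes added to their sources, mt-Atp8 (a small membrane subunit of complex V) was the highest at 71960.1 ± 6892 (SD, n = 5) TPM. It was followed by mt-Co2 at 51508 ± 2005 (SD, n = 5) and mt-Nd5 at 47168 ± 2244 (SD, n = 5) TPM, whose ranges overlapped. Next came mt-Co3 at 38506 ± 1385 (SD, n = 5) TPM, then mt-Nd4l at 28718 ± 1572 (SD, n = 5) TPM, each with no overlap with its neighbours in the order. The levels of mt-Nd1 at 22729.8 ± 1124 (SD, n = 5) and mt-Nd3 at 21322 ± 1208 (SD, n = 5) TPM overlapped. Below them the order was mt-Atp6, mt-Co1, mt-Nd2, mt-Nd4 and mt-Cytb, from 15731 down to 4163 TPM, and no neighbours among these overlapped. The partial copies Gm29216 and Gm28439 are not in these sums. Weighted by length and added, they gave mt-Co1 at 14495 ± 779 (SD, n = 5) TPM, which overlapped mt-Atp6, and mt-Nd4 at 9372 ± 558 (SD, n = 5) TPM, which overlapped mt-Nd2. The rRNAs were listed lower still, with mt-Rnr2 at 1473 ± 285 (SD, n = 5) and mt-Rnr1 at 683 ± 112 (SD, n = 5) TPM. Libraries were made with an mRNA-Seq kit, and how fully it captures these rRNAs is not given in the sources used here. Their TPM is therefore no measure of rRNA against mRNA amounts.

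The order was nearly the same at P21. The levels of mt-Nd3, at 32849 ± 3091 (SD, n = 4) TPM, and mt-Nd1, at 25395 ± 1333 (SD, n = 4) TPM, changed places, as did mt-Nd2, at 18011 ± 797 (SD, n = 4) TPM, and mt-Co1, at 16288 ± 53.5 (SD, n = 4) TPM. With Gm29216 added by length mt-Co1 was at 20693 ± 649 (SD, n = 4) TPM, above mt-Nd2 as at P7, so that exchange rests on leaving this copy out. Without the partial copies, neighbours that overlapped at P21 were mt-Co2 and mt-Nd5, mt-Nd4l and mt-Nd3, mt-Nd1 and mt-Atp6, and the rRNAs. The mt-Nd6 row was lowest by far, at 2.92 ± 0.550 (SD, n = 5) TPM at P7 and 5.67 ± 1.08 (SD, n = 4) TPM at P21 in WT libraries, although mt-Nd6 encodes a complex I subunit like its neighbour mt-Nd5. It is the only protein gene read from the other strand, and its transcript is known to lack the long poly(A) tail of the others. The end of mt-Nd6 is shown with the 14 bases in capitals that lie opposite mt-Nd5. Whether the counting used strand is not given in the sources used here, and reads of these bases may have gone to either gene.
mt-Nd6, bases 480 to 519: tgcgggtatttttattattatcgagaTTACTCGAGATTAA

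**Figure D3:**
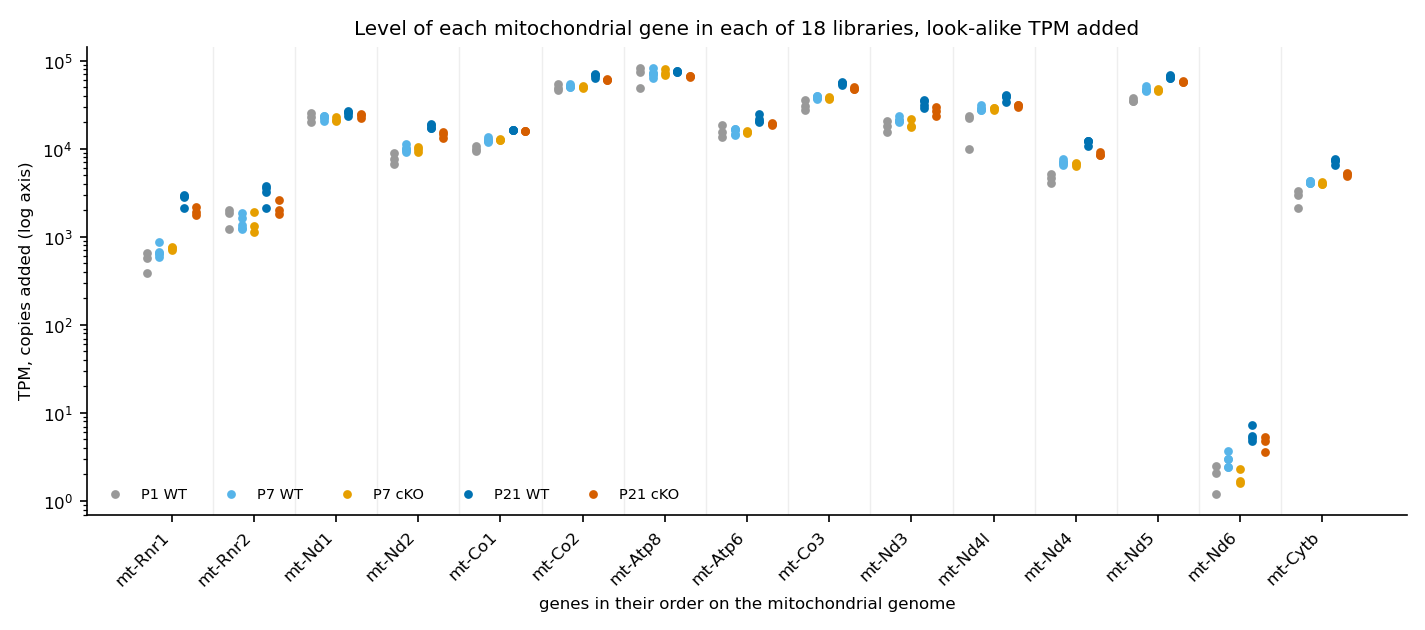
TPM (log axis) of the 15 mitochondrial protein and rRNA genes with the 5 look-alikes added to their sources, 1 point a library in the 5 groups. The levels run from 1.21 TPM for mt-Nd6 to 82043 TPM for mt-Atp8.

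The first comparison asked how the transcripts changed in WT hearts over the first week. Transcripts of complexes I, III and IV were among those that rose. The level of mt-Nd4, a proton-pumping subunit of complex I, was at 4632, 4053 and 5235 TPM at P1 and 7072, 7688, 6574, 7028 and 6872 at P7. The P7 libraries were all higher, with a log2 change of 0.67 ± 0.080 (SE), adjusted p = 3.49e-05. The level of mt-Cytb, the heme-binding core of complex III, went from 3279, 3023 and 2122 TPM to 4052, 4276, 4288, 4120.0 and 4079.8 TPM, a log2 change of 0.63 ± 0.12 (SE), adjusted p = 0.00102. The groups did not overlap. The row of mt-Nd5 was at 38171, 34666 and 34489 TPM and then at 47192, 50995, 45957, 45325 and 46370.3 TPM, a log2 change of 0.46 ± 0.055 (SE), adjusted p = 4.03e-05. Changes of 0.36 for mt-Nd2 and 0.35 for mt-Co1 also passed (adjusted p = 0.0141 and 0.000453).

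Over all rows as deposited, 10 of 20 tested members rose and 1 fell from P1 to P7, where 13.8% of all genes rose and 14.7% fell. The others that rose were mt-Rnr1 (0.51), mt-Atp6 (2.92), Gm28437 (0.31), Gm10222 (0.82) and Gm28438 (0.43), and Gm10925 fell by 0.27. These changes are adjusted for title style, a term that rests on P7 and P21 WT libraries alone. The plain differences in mean log2 value were 1.32 for mt-Atp6 and -0.055 for Gm10925, and in both rows the groups overlapped. Without the style term the calls of mt-Rnr1, mt-Atp6 and Gm10925 were lost. The mt-Atp6 and Gm10925 calls were opposite in direction within 1 pair, and their sum had a log2 change of -0.12 (adjusted p = 0.316). With copies added, 9 of 15 rose and 0 fell, with mt-Co3 at 0.31, mt-Nd3 at 0.34 and mt-Nd4l at 0.79 now among them. The mt-Nd4l sum was at 23581, 22405 and 10026 TPM at P1 and 28451, 31284, 28934, 27349 and 27572 TPM at P7, and Gm10222, which makes up most of it, had a change of 0.41 without P1 WT 3 (adjusted p = 0.000391). Without P1 WT 2 the mt-Rnr1 change was 0.30 and did not pass (adjusted p = 0.133). The sum of mt-Co2 and Gm28661 (0.08), mt-Nd1 (-0.01), mt-Atp8 (0.04), mt-Rnr2 (-0.07) and mt-Nd6 (0.47) did not pass. Without P1 WT 3, 11 of 20 rose, and with no filter on low genes 4 of 20 did, where 5.68% of all genes rose. The Gm10925 call was lost when any of 13 single libraries was left out, P1 WT 3 among them, and quantile normalization turned mt-Nd5 to -0.02. Endothelial markers ranged over 402 to 427 TPM at P1 and 497 to 564 at P7, and macrophage markers over 67.9 to 71.1 and 85.6 to 101 TPM, and their part was not tested. All P1 libraries are letter-coded, so this comparison could be made within a title style only against 2 P7 libraries.

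From P7 to P21 the rise in WT hearts reached most members. With copies added, 13 of 15 rose and 0 fell, where 8.09% of all genes rose. As deposited, 15 of 20 rose and 0 fell, where 8.1% of all genes rose and 64.4% fell and the median gene changed by -0.47 on the log2 scale. The largest rise was that of mt-Rnr1, the RNA of the small mitochondrial ribosomal subunit, from 673, 873, 583, 631 and 656 TPM to 2798, 2979, 2926 and 2125 TPM. No libraries overlapped, and the log2 change was 1.96 ± 0.13 (SE), adjusted p = 3.84e-09, or 2.43 relative to the median gene. The level of mt-Rnr2, the RNA of the large subunit, went from 1346, 1882, 1653, 1227 and 1255 TPM to 3218, 3569, 3781 and 2146 TPM, a log2 change of 1.07 ± 0.20 (SE), adjusted p = 0.000178. P21 WT 60 was the lowest P21 library for both rRNAs. How fully the mRNA-Seq kit captured these rRNAs is not given, and whether their capture differed between ages was not tested.

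Complex I transcripts rose unevenly. The changes were 0.84 for mt-Nd2, 0.73 for mt-Nd4, 0.47 for mt-Nd5 and 0.60 for mt-Nd3 with its copy, against 0.16 for mt-Nd1. The libraries of mt-Nd2 were at 9288, 9627, 11277, 10276 and 9886 TPM and then at 18488, 18885, 17355 and 17314 TPM, with no overlap. Those of mt-Nd1 were at 20886, 22532, 23578, 23627 and 23026 TPM and then at 26689.7, 26076, 23621 and 25194 TPM, and they overlapped (adjusted p = 0.0419). That call was lost when any of 8 single libraries was left out, and in plain-number libraries alone. Quantile normalization turned mt-Nd1, mt-Co1 and Gm28661 to negative changes (-0.24, -0.01 and -0.04), while the direction of the other calls held under each scaling tried. The sum of mt-Nd4l and Gm10222 had a log2 change of 0.39 and did not pass (adjusted p = 0.0546), although its libraries did not overlap.

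The transcripts of complexes III, IV and V were also mostly higher at P21. The change was 0.78 for mt-Cytb, 0.37 for mt-Co1, 0.40 for mt-Co2 with Gm28661, 0.52 for mt-Co3 with Gm28437 and 0.48 for mt-Atp6 with Gm10925. Adding the copy mattered most for mt-Co2, whose row alone had a log2 change of -1.35 with an SE of 1.38. Besides the mt-Nd4l sum, mt-Atp8 did not pass, at 62923, 69564, 82043, 72791 and 72479 TPM at P7 and 74329, 74521, 75589 and 75599 at P21. The P21 values lay inside the P7 range, and the change was 0.08 ± 0.11 (SE), adjusted p = 0.555. The level of mt-Nd6 went from 2.42, 3.0, 3.74, 2.40 and 3.03 to 5.44, 7.25, 5.20 and 4.81 TPM, a log2 change of 0.76 ± 0.16 (SE), adjusted p = 0.00045.

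Marker genes of other cell types moved over the same interval, and their part in these results was not tested. The summed TPM of 8 fibroblast markers ranged over 1549 to 2114 in P7 WT and 597 to 769 in P21 WT libraries, and that of 7 endothelial markers over 497 to 564 and 228 to 313. The 7 macrophage markers ranged over 85.6 to 101 and 193 to 282 TPM. The 8 cardiomyocyte markers ranged over 49862 to 54423 and 45491 to 50947 TPM. All markers named here were above 1 TPM on average in every group.

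Over the whole 3 weeks, P21 against P1 WT, 13 of 15 members with copies added rose and 0 fell, and 14 of 20 rows as deposited rose, where 11.0% of all genes rose and 57.1% fell. The largest changes were 2.47 for mt-Rnr1, 1.41 for mt-Nd4, 1.40 for mt-Cytb and 1.23 for mt-Nd6. Those that did not pass were mt-Nd1 (0.16, adjusted p = 0.109) and mt-Atp8 (0.11, adjusted p = 0.495). The same libraries serve in all WT comparisons, so this is not a separate finding.

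The 2 rRNAs are cut from 1 precursor, and their ratio was compared between ages. The TPM of mt-Rnr1 over that of mt-Rnr2 was 0.332 ± 0.130 (SD, n = 3) in P1 WT, 0.471 ± 0.0698 (SD, n = 5) in P7 WT and 0.867 ± 0.0912 (SD, n = 4) in P21 WT libraries. All P21 libraries exceeded all P7 libraries (exact two-sided permutation p = 0.0159, the smallest possible). The adjusted p was 0.333 over the 42 tests, none of which could have passed. The difference in the mean log2 ratio was 0.89. It was 0.94 within plain-number and 0.82 within letter-coded libraries. In cKO libraries the ratio was 0.534 ± 0.128 (SD, n = 3) at P7 and 0.916 ± 0.0742 (SD, n = 3) at P21. A difference between ages in how the kit captured the 2 rRNAs was not tested.

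**Figure D4:**
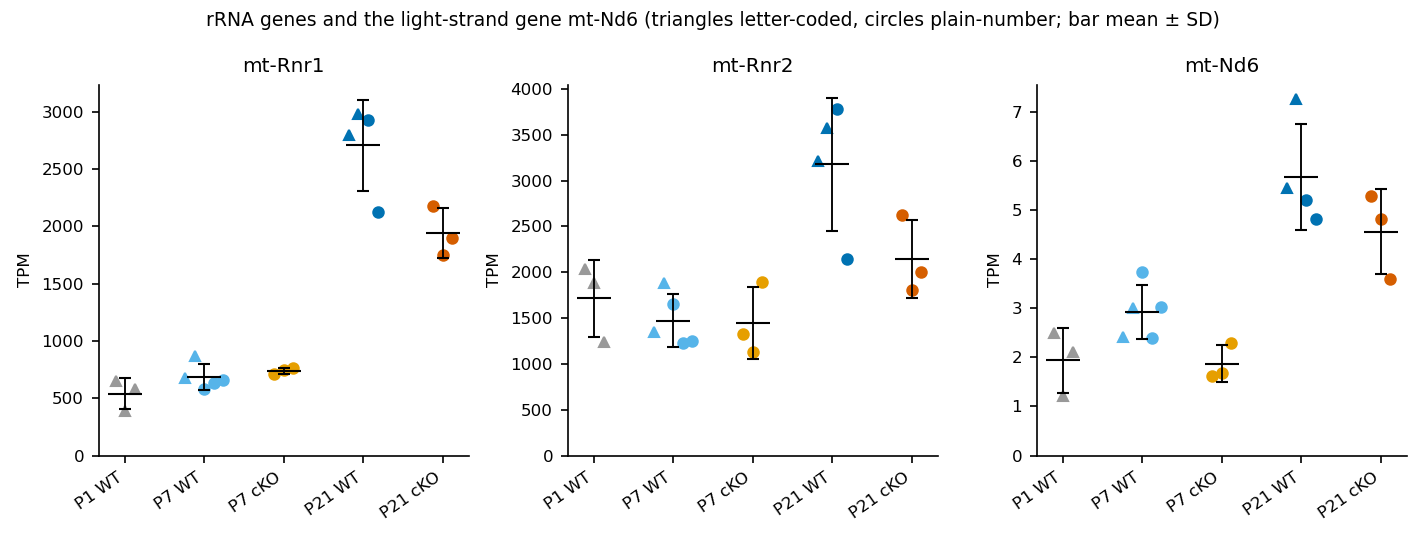
TPM of mt-Rnr1, mt-Rnr2 and mt-Nd6 in the 5 groups, 1 point a library (triangles letter-coded, circles plain-number titles), with bars for mean ± SD and axes from 0. All P21 libraries of mt-Rnr1 lie at 1753 TPM or higher and all earlier ones at 873 or lower.

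The makeup of the TPM of the 13 protein genes also differed in value between ages, and no test was made of it. Some neighbouring rows, such as mt-Atp8 and mt-Atp6, may be parts of 1 RNA. The values below are therefore shares of TPM and not of separate transcripts. With copies added, mt-Atp8 made up 21.7% ± 1.72 (SD, n = 5) of the TPM of the 13 protein genes in P7 WT and 17.2% ± 0.607 (SD, n = 4) in P21 WT libraries, and the values did not overlap. The share of mt-Nd1 was 6.86% ± 0.251 (SD, n = 5) and 5.83% ± 0.256 (SD, n = 4). The share of mt-Nd2 was 3.04% ± 0.201 (SD, n = 5) and 4.14% ± 0.0908 (SD, n = 4), and that of mt-Nd4 2.13% ± 0.127 (SD, n = 5) and 2.71% ± 0.103 (SD, n = 4). These shares are free of a library-wide scale factor, since each divides by the sum of the same 13 genes. The P21 cKO libraries differed from P21 WT in some of them: mt-Co1 made up 4.18% ± 0.0481 (SD, n = 3) against 3.74% ± 0.0993 (SD, n = 4), and mt-Nd4 2.29% ± 0.0877 (SD, n = 3) against 2.71% ± 0.103 (SD, n = 4). Those values did not overlap either.

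At P7 no member differed between cKO and WT hearts by the test. None of the 20 rows and none of the 15 sums passed, where 0.0203% of all genes rose and 0% fell; limma gave 4 rows and 1 sum an unadjusted p under 0.05, against 3.34% of all genes. The row of mt-Nd6 was at 2.42, 3.0, 3.74, 2.40 and 3.03 TPM in WT and 1.62, 1.69 and 2.30 TPM in cKO libraries. It was the only member whose groups did not overlap, with cKO lower, where 2.73% of all genes were lower without overlap. Its log2 change was -0.42 ± 0.18 (SE, unadjusted p = 0.0346 and adjusted p = 1). The ratio of mt-Nd6 to mt-Nd5 was also lower in every P7 cKO library (difference in mean log2 ratio -0.58, exact two-sided permutation p = 0.0357, adjusted p = 0.333). That exact p is the smallest possible, and its adjusted value could not have passed.

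The other rows with an unadjusted p under 0.05 at P7 were mt-Co2 (-3.60), mt-Atp6 (-1.73) and mt-Co3 (0.41). With the copies added these changes were -0.02, -0.09 and -0.02, each with an SE under 0.08. The 13 protein genes with copies added ranged from -0.42 to 0.04, with a median of -0.03, and the median of all genes tested was -0.02. The rRNAs were at 0.23 ± 0.151 (SE) for mt-Rnr1 and 0.05 ± 0.231 (SE) for mt-Rnr2. Leaving out mt-Nd6, the protein gene sums with the largest changes were mt-Nd3 at -0.10 ± 0.096 (SE) and mt-Atp6 at -0.09 ± 0.077. A p that misses the threshold does not show that the genotypes are alike.

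At P21 the transcripts of mt-Nd4, mt-Cytb and mt-Nd2 were lower in cKO than in WT hearts. The level of mt-Nd4 was 12099, 12261, 12107 and 10779.9 TPM in WT and 8538, 8433 and 9079 in cKO libraries. All cKO values lay below all WT values, and the log2 change was -0.39 ± 0.080 (SE), adjusted p = 0.00452, or -0.61 relative to the median gene, which was higher in cKO by 0.22. For mt-Cytb the values were 7371, 7585, 7271 and 6455 TPM and 5253, 4939 and 5159 TPM, again without overlap. Its log2 change was -0.46 ± 0.12 (SE), adjusted p = 0.014 (-0.67 relative to the median gene). The level of mt-Nd2, another complex I subunit, was 18488, 18885, 17355 and 17314 TPM in WT and 13389, 14519.5 and 15381 TPM in cKO libraries. The groups did not overlap, and the change was -0.34 ± 0.099 (SE), adjusted p = 0.0269 (-0.55 relative to the median gene).

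These 3 of 20 rows fell and 0 rose, where 1.77% of all genes fell and 19.5% rose. With copies added 4 of 15 fell, where 1.78% of all genes did, the fourth being mt-Atp6 with Gm10925. That sum was at 20176, 20442, 24719 and 21770.3 TPM in WT and 19097, 19735 and 18443 TPM in cKO libraries, a log2 change of -0.28 ± 0.083 (SE), adjusted p = 0.0298. The cKO values were all lower, though P21 WT 57 and P21 WT 60, the plain-number libraries, were the highest of the WT libraries. Without overlap, 11 of 20 rows and 10 of 15 sums were lower in cKO, where 3.07% of all genes were. The median change of the 20 rows was -0.23, against 0.22 for all genes tested. These 2 values are not independent, since TPM adds up to a fixed total. All members held 44.1% ± 1.25 (SD, n = 4) of it in P21 WT and 38.3% ± 0.0553 (SD, n = 3) in P21 cKO libraries. That smaller share by itself raises the TPM of the remaining genes in cKO.

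The members that did not pass lay mostly on the same side. Complex I had mt-Nd1 at -0.11, mt-Nd5 at -0.15 (adjusted p = 0.0675) and mt-Nd6 at -0.23, with the sums of mt-Nd3 at -0.22 and mt-Nd4l at -0.24. Complex IV had mt-Co1 at -0.01 and the sums of mt-Co2 at -0.12 and mt-Co3 at -0.17, and complex V had mt-Atp8 at -0.23. The rRNAs were at -0.34 ± 0.16 for mt-Rnr1 and -0.43 ± 0.25 (SE) for mt-Rnr2. Their libraries overlapped through P21 WT 60, at 2125 TPM for mt-Rnr1 against 2181, 1753 and 1899 in cKO. The look-alikes taken alone ran from -0.24 (Gm10222) to -0.12 (Gm28661).

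All cKO libraries carry plain-number titles, so the comparison was repeated within that style, 3 cKO against 2 WT libraries. There mt-Nd4 changed by -0.40, mt-Cytb by -0.42 and mt-Nd2 by -0.27 (adjusted p = 0.00467, 0.0032 and 0.0488), and mt-Nd5, Gm28437, Gm10222 and Gm10925 passed too, which made 7 of 20 lower where 1.28% of all genes were. Scaling each library to the median ratio over genes left the 3 lower and made 8 of 20 lower, where 5.34% of all genes were. The mt-Nd4 call held in each of the 30 other settings and was the only one to do so. The mt-Cytb call was lost without P21 WT 57 (adjusted p = 0.0587) or without P21 cKO 59 (0.0505). The mt-Nd2 call was lost without P21 WT 57 (0.0511), without P21 cKO 59 (0.0667) and without P21 cKO 55 (0.0792). Quantile normalization also ended the mt-Cytb call (0.125), and the lack of a filter the mt-Nd2 call (0.147). The count of 3 lower rows was 8 without P1 WT 3 and 1 without P21 WT 57 or without P21 cKO 59.

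Markers of other cell types also moved with genotype at P21, and their part in the result was not tested. Summed fibroblast markers ranged over 597 to 769 TPM in WT and 942 to 1187 in cKO libraries, endothelial markers over 228 to 313 and 366 to 401, and the 6 mural markers over 454 to 667 and 716 to 986. Cardiomyocyte markers ranged over 45491 to 50947 TPM in WT and 49192 to 52349 TPM in cKO libraries, and overlapped.

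**Figure D5:**
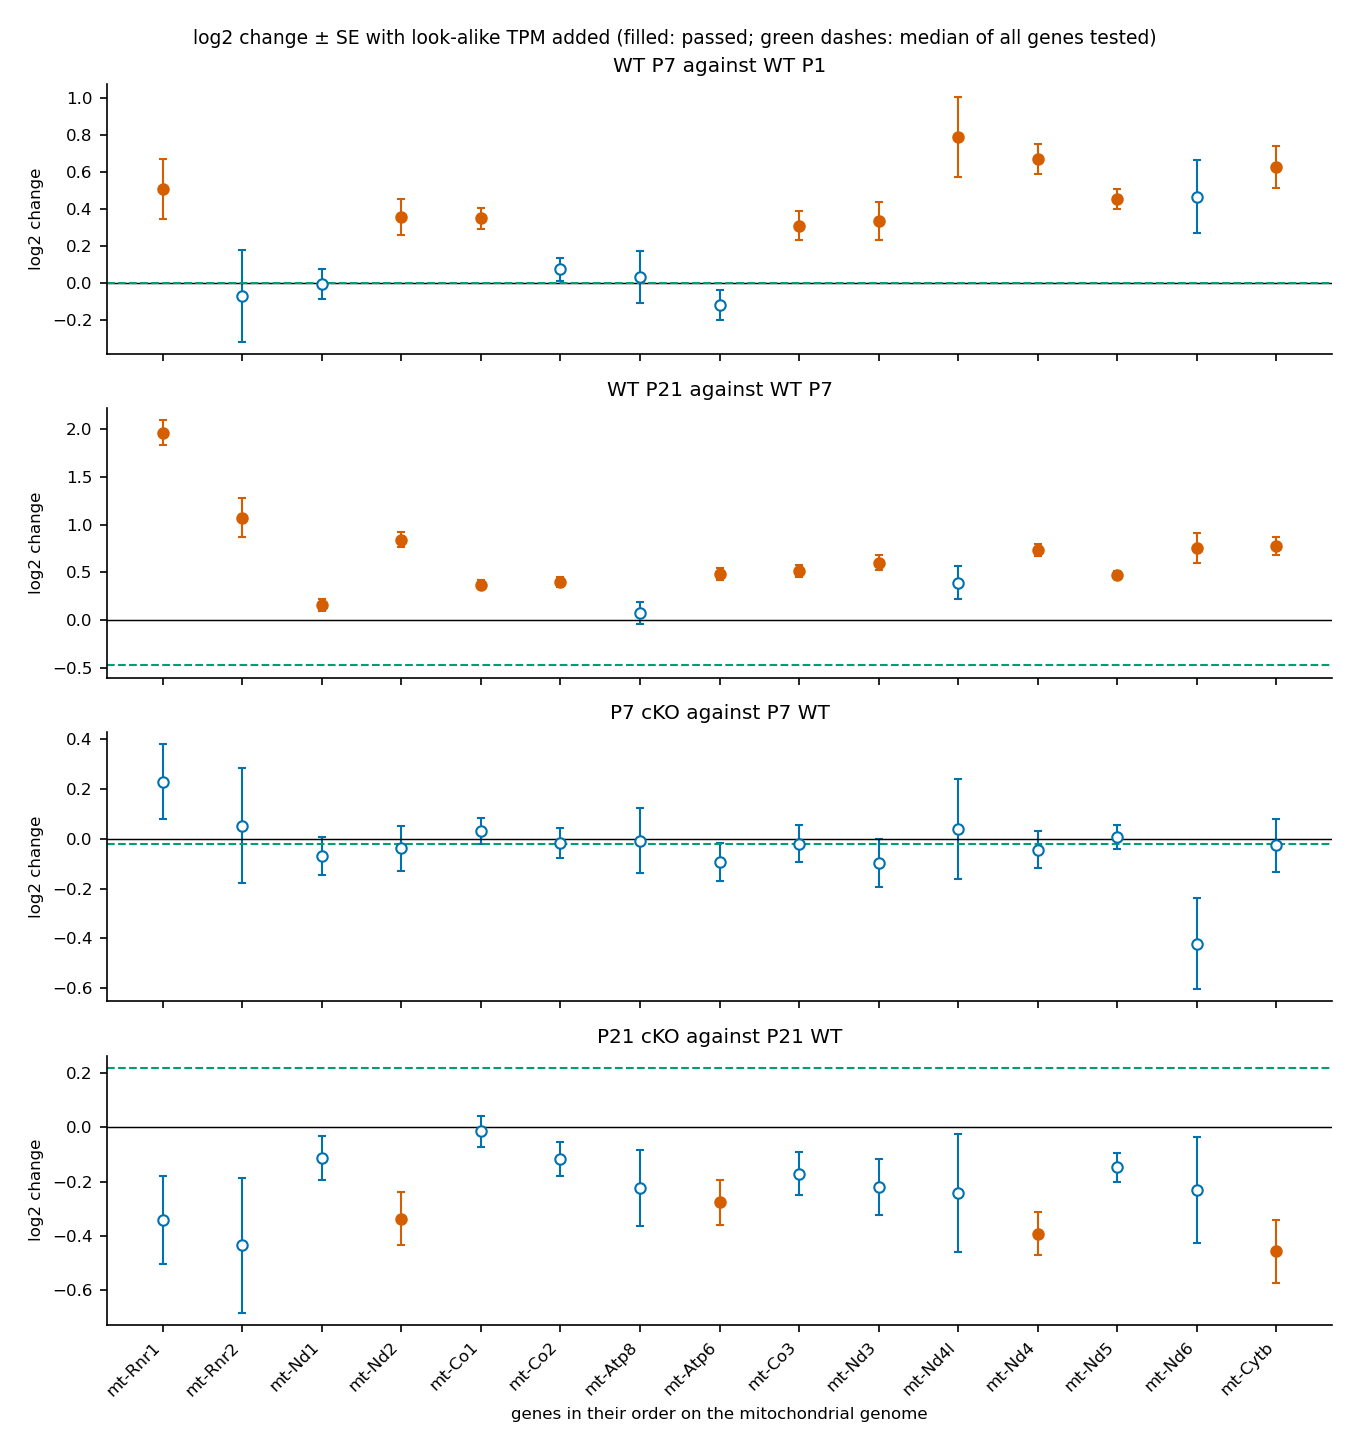
Log2 change with SE of the 15 mitochondrial protein and rRNA genes with the 5 look-alikes added, for the cKO and age comparisons, filled where the adjusted p is under 0.05. The P21 cKO changes run from -0.46 (mt-Cytb) to -0.01 (mt-Co1), and the WT P21 against P7 changes from 0.08 (mt-Atp8) to 1.96 (mt-Rnr1).

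Between P7 and P21 most of the transcripts rose in cKO hearts as well. As deposited 12 of 20 rose and 0 fell, where 9.36% of all genes rose and 39.0% fell, and 11 of 15 rose with copies added. The level of mt-Rnr1 went from 710.2, 743 and 763 TPM to 2181, 1753 and 1899 TPM, a log2 change of 1.39 ± 0.16 (SE), adjusted p = 4.25e-06. The groups did not overlap. The change was 0.95 for mt-Nd6, 0.54 for mt-Nd2, 0.39 for mt-Nd4 and 0.35 for mt-Cytb. It was -0.14 for mt-Atp8, which did not pass (adjusted p = 0.417), although all of its P21 cKO libraries were below all P7 cKO libraries. The count of 12 was 4 with quantile normalization, where 20.4% of all genes rose, a share near that of the members, and where mt-Nd1 was called lower. It was 6 with no filter, where 5.14% of all genes rose. In these cKO libraries fibroblast markers ranged over 1490.3 to 1879 TPM at P7 and 942 to 1187 at P21, endothelial markers over 529.6 to 558 and 366 to 401, macrophage markers over 81.9 to 97.7 and 180 to 238 and cardiomyocyte markers over 54482 to 55302 and 49192 to 52349 TPM. Their part in the result was not tested.

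Whether the genotype effect differed between P21 and P7 was tested directly as an interaction. Of the 20 rows, mt-Nd4 passed, with a difference in log2 change of -0.35 ± 0.10 (SE), adjusted p = 0.0488, where 7.04% of all genes passed upward and 0.52% downward. The cKO effect was -0.04 at P7 and -0.39 at P21. That call was lost in 20 of the 30 other settings. The differences of mt-Cytb, at -0.43 ± 0.15 (SE), adjusted p = 0.0776, and of mt-Rnr1, at -0.57 ± 0.20 (SE), adjusted p = 0.0893, did not pass. With copies added mt-Nd4 again was the 1 of 15 that passed (adjusted p = 0.0476).

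The nuclear genes that copy, cut and read the mitochondrial genome were compared beside the members. Of 9 transcription genes, which include the mitochondrial RNA polymerase Polrmt and the DNA packaging factor Tfam, 0 changed between cKO and WT at P21, with Polrmt at -0.28, adjusted p = 0.102. Over all genes 19.5% rose and 1.77% fell in this comparison. Of 14 replication genes 3 rose, a share near that of all genes, and 0 fell: Polg, the mitochondrial DNA polymerase (0.53, adjusted p = 0.00109), Dna2, a nuclease and helicase (0.42, adjusted p = 0.0235), and Lig3, a DNA ligase (0.42, adjusted p = 0.0432). Of these Dna2 was near the floor, with means of 0.943 TPM in P21 cKO and 0.51 TPM in P21 WT libraries. Among 14 RNA cleavage and processing genes Hsd17b10 and Ptcd2 rose and Ptcd3 fell (0.30, 0.26 and -0.24). Among 18 modification genes Nsun2 and Gtpbp3 rose and Trmt5 fell (0.31, 0.33 and -0.43). Of 7 RNA stability and decay genes 0 changed. Median-ratio scaling, which removes the shift of the median gene, left 1 replication gene higher and gave 1 transcription, 3 processing and 3 modification genes lower, where 4.11% of all genes were higher and 5.34% lower.

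Few of the nuclear-encoded partners of the members passed at P21. In complex III, the complex of mt-Cytb, 3 of 9 partners fell in cKO and 0 rose, where 1.77% of all genes fell and 19.5% rose: Uqcrc1, a core subunit (-0.26, adjusted p = 0.0131), Uqcrb (-0.20, adjusted p = 0.0411) and the iron-sulfur protein Uqcrfs1 (-0.18, adjusted p = 0.0483). None of 7 core complex I, 13 complex IV and 14 complex V partners passed in either direction. Median log2 changes were -0.01 for complex I, -0.15 for complex III, -0.02 for complex IV and -0.04 for complex V partners, against 0.22 for all genes. With median-ratio scaling 2 complex I, 5 complex III, 1 complex IV and 5 complex V partners were lower, where 5.34% of all genes were. At P7 0 genes of any of these lists passed between cKO and WT.

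Over the WT interval from P7 to P21, the genes of the expression machinery were mostly lower as deposited, as were all genes, of which 64.4% fell and 8.1% rose. Of the transcription genes 2 rose and 4 fell, of replication genes 2 and 9, of processing genes 0 and 10, of stability genes 0 and 6 and of modification genes 0 and 9. Examples were Polrmt (-0.46, adjusted p = 0.000526), Polg (-0.54, adjusted p = 4e-06), Elac2, which cuts the 3′ ends of tRNAs (-0.51, adjusted p = 3.16e-06), and Mtpap, the mitochondrial poly(A) polymerase (-0.74, adjusted p = 4.59e-07). Relative to the median gene these values were 0.01, -0.07, -0.04 and -0.27, and with median-ratio scaling the counts were 4 up and 0 down, 6 and 3, 9 and 0, 4 and 2 and 9 and 0 in the same order, where 27.6% of all genes rose and 26.8% fell. Under it Polrmt turned to 0.10, Polg to 0.01 and Elac2 to 0.02.

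Over that interval 4 of 7 complex I and 3 of 9 complex III partners rose and 0 fell, where 8.1% of all genes rose and 64.4% fell. Ndufs7 changed by 0.40, adjusted p = 3.71e-05, and Uqcrb by 0.19, adjusted p = 0.00373. Complex IV had 4 of 13 higher and 3 lower. Cox7a1 and Cox6a2, the muscle forms of their subunits, rose by 1.37 and 0.52, and Cox6a1, the form of most other tissues, and Cox8a fell by 1.18 and 0.96. In complex V 0 of 14 rose and 2 fell, Atp5g2 (-0.58) and Atp5b (-0.19), of which Atp5b turned to 0.39 with median-ratio scaling. Under that scaling 7 of 7 complex I, 9 of 9 complex III, 11 of 13 complex IV and 12 of 14 complex V partners rose. There 2 complex IV partners and 0 of the other complexes fell, where 27.6% of all genes rose and 26.8% fell.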

How the data were processed

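RNA of mouse heart was extracted with RNA iso Plus and made into libraries with a SMARTer mRNA-Seq kit, per the labels' protocols. The deposited table holds TPM per gene and library, made by the authors; their processing notes name mm10, TopHat2 2.0.14 and Cufflinks 2.2.1, and the step that made TPM and its handling of reads with several matches are not given in the sources used here. Depth is unknown, and 2 columns of no sample of the series were not used. Here 18 libraries were fitted together with limma 3.58.1 (R 4.3.3, version 1.17.8 of data.table) on log2(TPM + 1), with group and title style as terms and eBayes with trend, over 14812 genes with TPM of 1 or more in 3 libraries or more. P-values were adjusted by the Benjamini-Hochberg method over all genes within each of 7 comparisons, and an adjusted p under 0.05 passed. The fit was tested on simulated data. Each nuclear copy was also added to its source before the fit. Class shares and ratios used Python 3.11.15, numpy 2.4.6 and pandas 2.3.3, figures matplotlib 3.10.9, and ratios a pseudocount of 0.1 TPM and exact two-sided permutation tests. Gene sequences and coordinates came from GENCODE M21 (mm10), and nuclear matches were sought with blastn 2.17.0 (word size 16). Alternatives were another scaling, pseudocount, filter or model and leaving out each library. All protein, rRNA and look-alike members are named, tRNAs as a class with the longest and the shortest, and of other lists up to 4 genes per comparison with the smallest p among those that passed, or up to 2 where none passed. The members, lists and tests were chosen with earlier results of these data known. P21 library 63 was in no comparison.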

Additional observations from a re-analysis of the deposited data

Results flagged for a closer look

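In groups of 4 or 5 libraries, 58 series of values were checked for a library far from the others, and chance flags about 1 in 20 such series. A gap of that kind was found in 3. The mt-Nd3 row was at 4096.4 TPM in P21 WT 57, against 2609 to 2840.4 TPM in the other P21 WT libraries. The mt-Nd4 row was at 10779.9 TPM in P21 WT 60, against 12099 to 12261 TPM in the others. Gm28661 was at 62683.6 TPM in P21 WT 60, against 68559 to 69561 TPM in the others. The cKO effect on mt-Nd4 differed between P21 and P7 by -0.348 on the log2 scale in the interaction test (limma, adjusted p = 0.0488).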

How the results depend on the processing

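The mt-Nd4 call at P21 (cKO against WT) held in all 30 other settings, with changes of -0.65 to -0.29. The count of members lower in P21 cKO, 3 as reported, was 8 with median-ratio scaling, 6 with that scaling and copies added, 6 after rescaling without the members and haemoglobin genes, 6 without the title style term and 7 in plain-number libraries, and 1 to 8 when each library was left out in turn: 1 without P21 WT 57 or P21 cKO 59 and 8 without P1 WT 3. For WT P7 against P1 the 10 higher became 6 with quantile normalization, 4 with no filter and 6 with copies added and median-ratio scaling. The 1 lower there became 2 with quantile normalization and 0 with median-ratio scaling, rescaling, no filter, no title style or copies added (5 or all 7, and with median-ratio scaling), and 0 to 1 leaving out a library. With quantile normalization the 15 higher in WT P21 against P7 became 9 and the 12 in cKO P21 against P7 became 4 (6 with no filter), with 1 lower in each and 1 lower in WT P21 against P1. That normalization takes out a rise shared by the top-ranked rows. The 1 lower in the interaction became 0 with quantile normalization, no filter, no title style or plain-number libraries, 2 with copies added and median-ratio scaling, and 0 to 3 leaving out a library. Adding the look-alikes to the protein class moved its difference in share from -3.01 to -5.67 percentage points (P21 cKO against WT), from 2.37 to 4.52 (WT P7 against P1, 1.27 to 3.32 leaving out a library, the lowest without P1 WT 3), from 4.82 to 10.4 (WT P21 against P7), from 7.19 to 14.9 (WT P21 against P1) and from 1.95 to 5.25 (cKO P21 against P7).

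Adding the copies (5 or all 7 alike) reversed mt-Atp6 (2.92 to -0.12, or -0.11 with median-ratio scaling), mt-Nd3 (-0.53 to 0.34) and mt-Nd4l (-1.17 to 0.79 in both) in WT P7 against P1. It also reversed mt-Co2 in WT P21 against P7 (-1.35 to 0.40, or 0.98 with median-ratio scaling) and mt-Nd4l in WT P21 against P1 (-0.56 to 1.18, or 1.77). Quantile normalization reversed mt-Nd5 in WT P7 against P1 (-0.019), mt-Nd1 (-0.24), mt-Co1 (-0.012) and Gm28661 (-0.039) in WT P21 against P7, mt-Nd1 (-0.50) and Gm28661 (-0.14) in WT P21 against P1, and mt-Nd1 in cKO P21 against P7 (-0.19). In WT P21 against P7, median-ratio scaling (with or without copies added) and quantile normalization turned these genes from lower to Polrmt 0.096 and 0.049, Mterf4 0.17 and 0.19, Elac2 0.021 and 0.022, Tbrg4 0.17 and 0.051, Grsf1 0.28 and 0.12, Ptcd2 0.25 and 0.14, Supv3l1 0.15 and 0.11, Pnpt1 0.16 and 0.15, and Nsun2 0.13 and 0.09. Polg turned to 0.013 with median-ratio scaling, and Atp5b to 0.39, or 0.076 after rescaling. Apart from settings that drop genes or libraries, the cause was not tested.

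Deviations of same-numbered letter-coded libraries from their group means correlated by -0.12 to 0.16, and those of differently numbered ones by -0.10 to 0.16. The group means rest on few libraries and mix title styles at P7 and P21. These values therefore cannot decide whether a shared replicate number marks anything shared. With the replicate number as a block, 4 members were lower in P21 cKO (Gm10925 added) and 14 higher in WT P21 against P7 (mt-Nd1 lost), and the counts of the other comparisons did not change. Without counts, depth limits on low rows such as mt-Nd6 could not be given.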

Other observations

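The P21 library with the number 63, whose genotype label and title disagree, held 22.28% of its TPM in the 13 protein genes, 0.468% in the 2 rRNA genes and 19.67% in the look-alikes.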
